A study of Mus musculus with 6 samples.

Results

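The 10 genes described here encode the NF-κB subunits (*Nfkb1*, *Nfkb2*, *Rel*, *Rela* and *Relb*), the classical IκB inhibitors (*Nfkbia*, *Nfkbib* and *Nfkbie*), the nuclear IκB protein IκBζ (*Nfkbiz*) and the ubiquitin-editing enzyme A20 (*Tnfaip3*). They were chosen by symbol from the 55453 genes of the deposited count table, and all 10 were found. The choice was by symbol and not by level, but it was made with earlier results of these data known. RNA-Seq was made from 6 libraries of bone marrow-derived macrophages (BMDM) of C57BL/6 mice, 3 labelled PP2A KO (PP2Ac KO) and 3 labelled Wild Type (PP2Ac WT). PP2Ac KO cells come from LysMcrePP2Ac fl/fl mice, in which Cre driven by the Lysozyme 2 promoter removes exon 1 of *Ppp2ca*, the gene of the catalytic subunit of protein phosphatase 2A (PP2A), in the myeloid lineage, and no Cre or floxed allele is stated for the WT mice. The paper's RNA-Seq used BMDM of both genotypes treated with cGAMP, a cyclic dinucleotide that activates STING, and the libraries were taken as such, since the labels give no treatment, time, age or sex. No untreated library is in the series, so that a difference present at rest and one that arises after cGAMP cannot be told apart. The WT mice came from a commercial breeder and the LysMcrePP2Ac fl/fl mice from another laboratory, so that loss of PP2Ac, the presence of Cre and the origin of the mice cannot be told apart either.

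NF-κB is a family of dimeric transcription factors whose subunits share the Rel homology domain. *Rela*, *Rel* and *Relb* encode subunits with a transactivation domain, and *Nfkb1* and *Nfkb2* encode precursors, p105 and p100, that are processed to DNA-binding subunits and can themselves hold other subunits in the cytoplasm. In resting macrophages IκB proteins keep the dimers inactive. Sensors such as TLRs, TNF receptors and STING engage kinases that lead to the degradation of IκB, and the freed dimers induce cytokine genes together with their own inhibitors, above all *Nfkbia* and *Tnfaip3*, which is why transcripts of these feedback genes are often read as a record of NF-κB activity. The phosphatase PP2A acts on several proteins of this pathway in macrophages, and the comparison of the genotypes asks how transcripts of the pathway differ when its catalytic subunit is lost.

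The regulatory sequences of the feedback loop are κB sites, short GC-rich elements that NF-κB dimers bind. RefSeq promoter windows of the build GRCm38.p6, from 250 bases before to 50 bases after a transcription start, were at hand for 7 of the 10 genes in 10 windows. *Nfkb1*, *Relb* and *Nfkbiz* had no window. Both strands were searched for the κB consensus, which matched in windows of *Nfkbia*, *Nfkbie*, *Tnfaip3*, *Rel* and *Nfkb2*, 5 genes, and in no window of *Rela* or *Nfkbib*. Counted by window, 7 of the 10 held a match, among them overlapping windows of *Nfkb2*, beside 8.46% of all 32851 promoter windows. A stricter form of the consensus occurred in 3 of the 10 windows, of *Nfkbia* and *Nfkb2*, and in 0.411% of all windows. The core of the interferon-stimulated response element occurred in 0 of the 10 windows and in 3.44% of all. At that share a count of 0 in 10 windows says little. The sequences below are shown because they hold these matches, printed 5′ to 3′ on the strand of the gene, with the bases covered by a match in capitals. A match is a stretch of letters and not a measured binding site. For *Nfkbia* and *Nfkbie* the 150 bases before the start are given, and for the others 30 bases around a match.
Nfkbia, minus strand, chr12:55492648-55492797: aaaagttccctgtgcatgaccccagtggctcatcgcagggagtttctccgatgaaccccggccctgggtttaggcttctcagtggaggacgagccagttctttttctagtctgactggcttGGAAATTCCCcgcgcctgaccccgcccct
Nfkbie, plus strand, chr17:45555550-45555699: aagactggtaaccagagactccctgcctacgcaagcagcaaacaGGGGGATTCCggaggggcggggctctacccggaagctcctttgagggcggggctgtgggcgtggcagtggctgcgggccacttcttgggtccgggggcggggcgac
Tnfaip3, minus strand, chr10:19015411-19015440: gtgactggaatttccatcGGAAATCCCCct
Tnfaip3, minus strand, chr10:19015516-19015545: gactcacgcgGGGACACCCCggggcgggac
Rel, minus strand, chr11:23771042-23771071: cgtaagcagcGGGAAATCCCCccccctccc
Nfkb2, plus strand, chr19:46304688-46304717: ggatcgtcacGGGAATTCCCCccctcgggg
Nfkb2, plus strand, chr19:46304707-46304736: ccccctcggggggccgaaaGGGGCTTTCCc

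The match of *Nfkbia* read GGGAATTTCC on the other strand and lay from base -29 to base -20 before the start. That of *Nfkbie* lay from -106 to -97. In 1 of the 2 *Tnfaip3* windows, 1 match lay from -12 to -3 and another, read on both strands, from -125 to -116. The *Rel* match, also read on both strands, began at -92, where matches on the strands overlapped and covered 1 stretch. *Nfkb2* has 3 windows, and the matches printed for the most upstream one lay from -39 to -29 and from -11 to -2. Both stretches printed for *Nfkb2* touch an annotated exon of the gene (GENCODE M21), and those printed for the other genes do not. The other windows of *Nfkb2* overlap, and both held the same GGGACTTTCC, 1 site on the strand of the gene. The upstream one of them also held GGGACATTCC on the other strand.

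**Figure D1:**
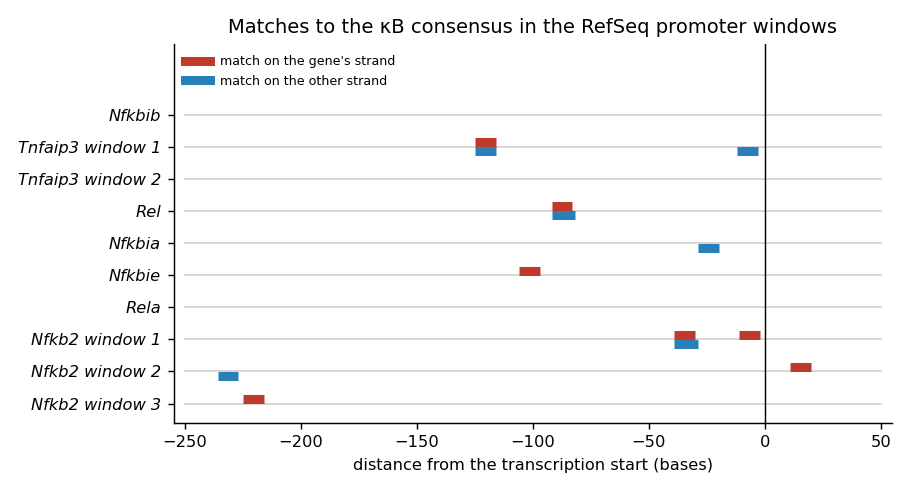
Positions of matches to the κB consensus in the 10 RefSeq promoter windows of 7 genes, as distance from the transcription start in bases (x axis), with 1 line for each window. Red bars are matches on the strand of the gene and blue bars matches on the other strand, and windows of Rela and Nfkbib hold none.

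Every library was deep for these genes. The lowest count of any of the 10 in any library was 1158 (*Nfkbib*, a WT library) and the highest 16760 (*Nfkb1*, a KO library), in libraries of 35257156 to 47390899 counts. *Ppp2ca* had 33 to 47 counts in KO and 8279 to 10654 in WT, so that its transcript was low in every library labelled KO. The macrophage marker *Csf1r* had a mean of 3405 CPM (counts scaled to the size of the library) in KO and 3011 CPM in WT, and the 9 markers on that list summed to 8770 to 8916 CPM in KO and 7478 to 8017 CPM in WT. Of these 9, *Fcgr1* and *Mertk* were higher in KO (log2 fold changes 0.70 and 0.27, edgeR FDR 0.000490 and 0.0398), beside 18.1% of all genes tested. With the replicate block 5 of the 9 were higher, beside 24.4% of all genes tested. *Lyz2*, on the same list, was low in the deposited counts, with a mean of 8.86 CPM in KO and 7.30 CPM in WT. The reason for this low count was not tested. Markers of fibroblasts (*Col1a1*, *Col1a2*, *Col3a1* and *Dcn*) summed to 22.7 to 33.4 CPM in KO and 74.9 to 117.7 CPM in WT. All 4 were lower in KO (FDR under 0.05), beside 19.0% of all genes tested. Of 6 dendritic cell markers, 4 were tested, and *Clec9a* and *Siglech* were higher in KO, beside 18.1% of all genes tested. The list summed to 2.18 to 3.16 CPM in KO and 1.24 to 2.05 CPM in WT, with *Xcr1* at 3 counts or fewer in every library. Of 4 B cell markers, 2 were tested, and *Ighm* was lower in KO, beside 19.0% of all genes tested. This list summed to 13.99 to 14.50 CPM in KO and 19.7 to 28.2 CPM in WT. T and NK cell markers summed to at most 0.212 CPM and neutrophil and precursor markers to at most 0.978 CPM in any library, with *Cd8a*, *Ly6g* and *Retnlg* at 0. The part of macrophages, fibroblasts, dendritic cells and B cells in the differences given here was not tested, and in bulk RNA fewer cells of a type and less RNA per cell cannot be told apart.

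All 10 transcripts were higher in PP2Ac KO than in PP2Ac WT BMDM (edgeR's quasi-likelihood test, FDR under 0.05 with Benjamini-Hochberg adjustment over the 13680 genes tested). Of all genes tested, 37.1% were called by this rule, 18.1% higher and 19.0% lower, and in the model with replicate block terms, where all 10 were again higher, 24.4% were higher and 26.4% lower. None of the 10 was lower, at an unadjusted p under 0.05 or with DESeq2 or limma-voom, where the counts were likewise 0. In each of the 10 genes the 3 KO libraries lay above the 3 WT libraries, a pattern found in 24.0% of all genes tested, with the reverse in 26.8% and either in 50.9%. The log2 fold changes ran from 0.43 (*Rel*) to 1.62 (*Nfkbie*), with a median of 0.79, beside a median of -0.02 over all genes tested. They fell into a group of larger changes, *Nfkbie*, *Nfkbia* and *Tnfaip3*, and a group of smaller ones that held all 5 subunits, *Nfkbib* and *Nfkbiz*. The 3 larger ones alone passed the stricter thresholds of the study (FDR under 0.01, with a log2 fold change above 1 for upregulated genes), as did 3.36% of all genes tested, with 2.99% past them in the lower direction.

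**Figure D2:**
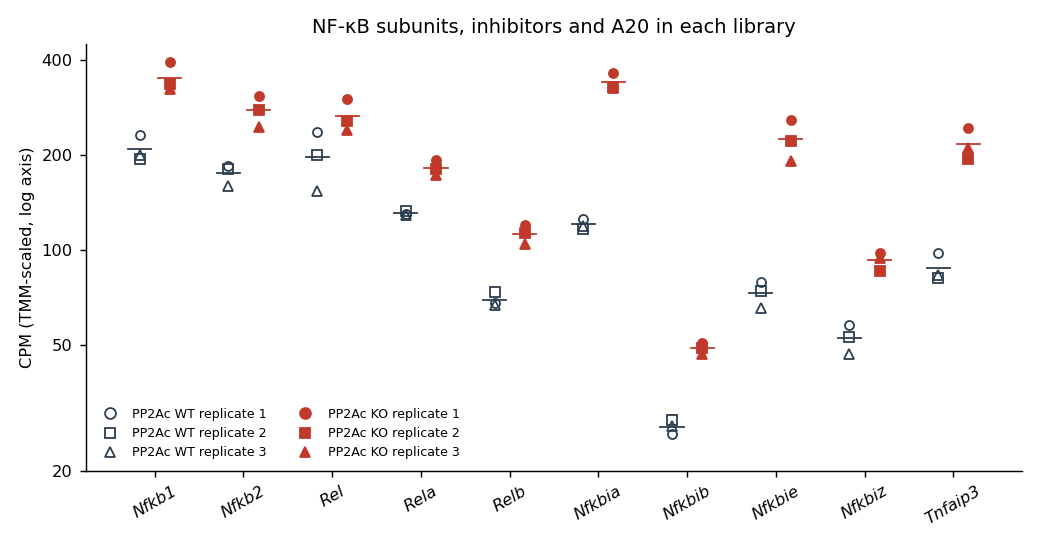
Level of each gene in each library, in TMM-scaled CPM on a log axis. Open dark symbols are the 3 PP2Ac WT libraries and filled red symbols the 3 PP2Ac KO libraries, symbol shape gives the replicate number, and horizontal lines are group means. KO symbols lie above WT symbols in all 10 genes, most narrowly in Rel.

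*Nfkbia* encodes IκBα, the inhibitor that masks RelA-containing dimers and is resynthesized after each round of activation. It had 364.1, 328.2 and 327.5 CPM in KO replicates 1, 2 and 3 and 125.8, 117.0 and 119.2 CPM in WT replicates 1, 2 and 3. The lowest KO library was 2.60 times the highest WT library, the widest gap among the 10 genes. The means were 339.9 ± 20.9 CPM in KO and 120.7 ± 4.58 CPM in WT (SD, n = 3), a 2.82-fold difference (log2 fold change 1.49, standard error 0.07, adjusted p = 1.48e-05 from edgeR). Of the 13680 genes tested, 3 had a smaller p. *Nfkbia* lies on chromosome 12, from 55489410 to 55492647 on the minus strand (GENCODE M21, GRCm38), and overlaps no other annotated gene.

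*Nfkbie* encodes IκBε, an inhibitor that acts with delay and has a preference for c-Rel and RelA dimers. KO libraries had 259.1, 221.4 and 192.1 CPM and WT libraries 79.4, 74.3 and 65.7 CPM. Libraries of the same genotype differed more than for *Nfkbia*, but the groups were far apart, with the lowest KO library at 2.42 times the highest WT library. The 3.07-fold difference was the largest of the 10 (log2 fold change 1.62, standard error 0.12, adjusted p = 5.40e-05 from edgeR).

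*Nfkbib* encodes IκBβ, which is degraded and remade more slowly than IκBα and is not a strong feedback gene. It was the inhibitor with the lowest level and the smallest difference. KO libraries had 50.7, 48.8 and 47.02 CPM and WT libraries 26.0, 28.9 and 27.6 CPM. The log2 fold change was 0.83 (SE 0.06, edgeR FDR 5.90e-05), and its 95% interval of 0.68 to 0.97 lay below those of *Nfkbia* (1.33 to 1.65) and *Nfkbie* (1.36 to 1.88). Of the exon bases of *Nfkbib*, 14.5% are shared with *Ccer2* and 1.94% with *Sirt2* on the opposite strand. The strand setting of the counting is not given in the sources used here, so how reads of the shared bases were counted is not known.

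*Tnfaip3* encodes A20, which edits ubiquitin chains on RIPK1 and other adaptors and ends signaling from TNF receptors and TLRs. KO libraries had 244.6, 194.2 and 210.9 CPM and WT libraries 97.6, 81.4 and 83.4 CPM. The lowest KO library was 1.99 times the highest WT library. The means were 216.6 ± 25.7 CPM in KO and 87.5 ± 8.84 CPM in WT (SD, n = 3), a 2.48-fold difference (log2 fold change 1.31, standard error 0.10, adjusted p = 6.16e-05 from edgeR).

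*Nfkbiz* encodes IκBζ, a nuclear protein induced by TLR and IL-1 receptor ligands that helps p50 dimers to activate secondary genes such as *Il6*. KO libraries had 98.2, 85.6 and 94.3 CPM and WT libraries 58.0, 52.9 and 46.7 CPM. The groups were apart by 1.48 times from the lowest KO to the highest WT library. The log2 fold change was 0.82 (SE 0.09, edgeR FDR 0.000195), close to that of *Nfkbib* and below that of *Tnfaip3*, with intervals of 0.62 to 1.02 for *Nfkbiz* and 1.08 to 1.54 for *Tnfaip3*.

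Among the subunits, *Nfkb1* (p105 and p50) had the largest difference. *Gm43430* on the same strand lies within its span and shares no exon base with it. KO libraries had 395.1, 336.4 and 324.4 CPM and WT libraries 232.4, 195.0 and 199.97 CPM, a log2 fold change of 0.75 (SE 0.10, edgeR FDR 0.000465). *Relb*, whose product pairs with p52 in the noncanonical pathway, followed with 120.0, 113.2 and 104.2 CPM in KO and 68.0, 73.7 and 67.0 CPM in WT, a log2 fold change of 0.69 (SE 0.07, edgeR FDR 0.000170). Its lowest KO library was 1.41 times its highest WT library, the widest gap among the subunits. *Nfkb2* (p100 and p52) had 308.7, 277.4 and 246.1 CPM in KO and 185.3, 180.2 and 159.7 CPM in WT, a log2 fold change of 0.66 (SE 0.10, edgeR FDR 0.000736). The 95% intervals of these log2 fold changes, 0.53 to 0.97, 0.53 to 0.86 and 0.45 to 0.88, overlapped over most of their length. Of the exon bases of *Nfkb2*, 11.6% are shared with *AC114539.1* and 6.52% with *Psd* on the opposite strand.

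*Rela* and *Rel*, whose products carry the transactivation domains of the canonical pathway, had the smallest differences. *Rela* (p65) had 193.2, 180.5 and 173.6 CPM in KO and 129.999, 133.4 and 128.9 CPM in WT. The coefficient of variation over the WT libraries was 1.80%, and the 1.39-fold difference stood clear of the spread (log2 fold change 0.48, standard error 0.06, adjusted p = 0.000516 from edgeR). *Rel* (c-Rel) had 300.6, 255.8 and 240.5 CPM in KO and 236.6, 199.5 and 154.1 CPM in WT. The lowest KO library was 1.02 times the highest WT library, and WT libraries had a coefficient of variation of 20.98%, the widest of the 10 genes in either group. The log2 fold change was 0.43 (SE 0.15, edgeR FDR 0.0427), with a 95% interval of 0.10 to 0.76. The result for *Rel* did not hold when certain libraries were left out: the adjusted p was 0.145 without KO replicate 1, 0.0778 without KO replicate 2, 0.0984 without WT replicate 2 and 0.0803 without WT replicate 3, with log2 fold changes of 0.33, 0.46, 0.44 and 0.29. In both genotypes *Rel* was highest in replicate 1 and lowest in replicate 3. The log2 ratios of same-numbered libraries were uneven, 0.35, 0.36 and 0.64 in pairs 1, 2 and 3.

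**Figure D3:**
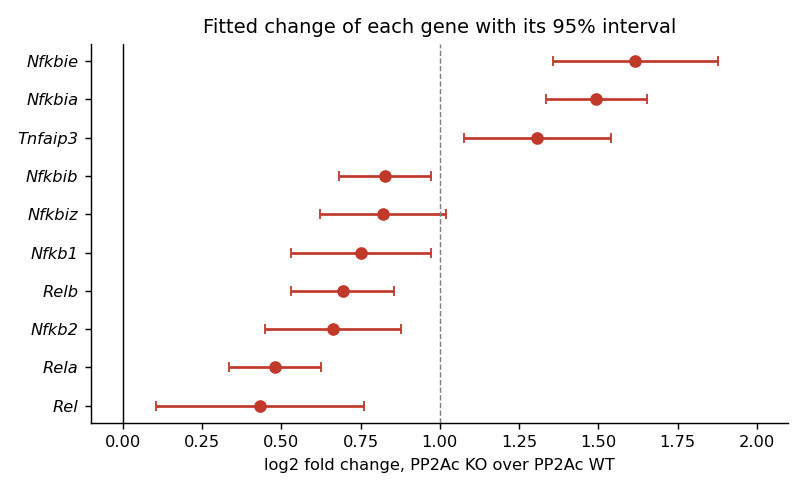
Log2 fold change of each gene, PP2Ac KO over PP2Ac WT (x axis), from edgeR, with its 95% interval as a bar. The solid line marks 0 and the dashed line 1. Nfkbie, Nfkbia and Tnfaip3 have intervals wholly above 1 and the intervals of all 5 subunits lie below 1.

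The libraries of a genotype kept a similar order across the 10 genes. KO replicate 1 was the highest KO library in 10 of 10 genes and KO replicate 3 the lowest in 8. WT replicate 1 was the highest WT library in 7 and WT replicate 3 the lowest in 6. The order was not counted over all genes tested, so it is not shown to be particular to these 10. Over the 6 libraries, Pearson's r of log2 CPM between pairs of the 9 genes other than *Rel* ran from 0.942 to 0.997 (36 pairs), and for pairs with *Rel* from 0.73 to 0.89 (9 pairs). These values describe 6 libraries that share the difference between genotypes and are no test. The genes outside the 10 whose profile was most like that of *Nfkbie*, the gene with the largest change, were *Ccdc88b*, *Sinhcaf* and *Arl5c*, with r of 0.9998, 0.9994 and 0.9988 over the 6 libraries. Their log2 fold changes were 0.68, 0.73 and 0.96. They were picked by likeness to a profile that separates the genotypes in these same libraries. A difference between the genotypes therefore followed from the choice, and no p is given for it.

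Levels of different genes were compared per kilobase of exon, as CPM divided by the length of all annotated exons of the gene (RPKM). *Nfkbia* was the most abundant of the 10 in both genotypes, at 211.1 ± 13.0 RPKM in KO and 74.9 ± 2.84 RPKM in WT (SD, n = 3). In WT it was followed by *Rela* (42.6 ± 0.765), *Nfkb2* (38.2 ± 2.96), *Rel* (26.4 ± 5.53) and *Nfkbie* (24.0 ± 2.27), then by *Relb* (17.9 ± 0.941), *Nfkb1* (17.3 ± 1.68), *Nfkbib* (12.7 ± 0.654), *Tnfaip3* (12.1 ± 1.22) and *Nfkbiz* (10.5 ± 1.12 RPKM). In KO the order was *Nfkbia*, *Nfkbie* (73.6 ± 11.0), *Nfkb2* (60.5 ± 6.83), *Rela* (59.4 ± 3.24), *Rel* (35.6 ± 4.18), *Tnfaip3* (30.0 ± 3.56), *Nfkb1* (29.2 ± 3.13), *Relb* (28.9 ± 2.03), *Nfkbib* (22.5 ± 0.839) and *Nfkbiz* (18.5 ± 1.29 RPKM). *Nfkbie* stood in place 5 in WT and place 2 in KO, and *Tnfaip3* in place 9 in WT and place 6 in KO. Per kilobase of the longest transcript *Nfkbie* stood in place 6 in WT and 3 in KO, and *Tnfaip3* in place 8 in WT and 7 in KO. Neighbours whose libraries overlapped were *Rel* and *Nfkbie*, *Relb* and *Nfkb1*, *Nfkbib* and *Tnfaip3*, and *Tnfaip3* and *Nfkbiz* in WT. In KO they were *Nfkbie* and *Nfkb2*, *Nfkb2* and *Rela*, *Rel* and *Tnfaip3*, *Tnfaip3* and *Nfkb1*, and *Nfkb1* and *Relb*. The place of *Nfkb1* rests most on the length used, since its annotated exons add up to 12061 bp and its longest transcript to 4149 bp. Per kilobase of the longest transcript it came second to *Nfkbia*, at 84.8 ± 9.11 in KO and 50.4 ± 4.90 in WT.

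The balance of inhibitor and subunit transcripts was described within each library, where scaling between libraries has no effect. *Nfkbia*, *Nfkbib* and *Nfkbie* together, per kilobase of exon, were 1.43, 1.42 and 1.47 times the sum of the 5 subunits in KO replicates 1, 2 and 3 and 0.769, 0.763 and 0.825 times in WT replicates 1, 2 and 3. The inhibitor transcripts were therefore more abundant than the subunit transcripts in every KO library and less abundant in every WT library, and the ratio was 1.83-fold higher in KO. Per kilobase of the longest transcript, which raises the share of *Nfkb1*, the ratio was 1.06 to 1.09 in KO and 0.581 to 0.621 in WT. Taken singly against the sum of the subunits, *Nfkbie* was 2.04-fold higher in KO, *Nfkbia* 1.88-fold and *Tnfaip3* 1.65-fold, while *Nfkbib* and *Nfkbiz* were 1.18-fold higher each. The ratio of *Nfkb2* plus *Relb*, of the noncanonical pathway, to *Nfkb1*, *Rel* and *Rela* was 0.696 to 0.741 in KO and 0.621 to 0.675 in WT. This smaller shift rested on the length used, and per kilobase of the longest transcript the libraries overlapped, with 0.550 to 0.587 in KO and 0.509 to 0.565 in WT. No p is given for these ratios, which combine genes chosen with results of these data known.

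**Figure D4:**
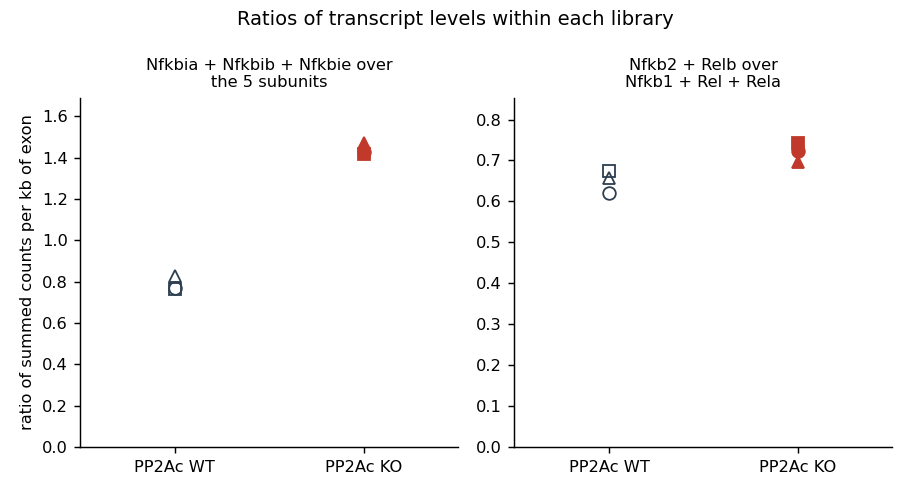
Ratios of summed transcript levels (counts per kilobase of exon) in each library, for the 3 classical inhibitors over the 5 subunits (left) and for Nfkb2 plus Relb over Nfkb1, Rel and Rela (right). Open dark symbols are PP2Ac WT and filled red symbols PP2Ac KO, with symbol shape for the replicate number. The left ratio is above 1.4 in every KO library and at most 0.825 in WT, and the right one differs little.

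Within the sum of subunit transcripts the mean shares differed little between the genotypes. *Nfkb2* made up 28.3% ± 0.798 in KO and 26.8% ± 0.328 in WT, *Rela* 27.9% ± 0.9748 and 30.0% ± 1.99, *Rel* 16.6% ± 0.494 and 18.4% ± 2.62, *Nfkb1* 13.7% ± 0.376 and 12.2% ± 0.873, and *Relb* 13.6% ± 0.336 and 12.6% ± 0.897 (SD, n = 3, per kilobase of exon). The shares of *Nfkb1*, *Nfkb2* and *Relb* were higher in every KO library than in any WT library, and those of *Rela* and *Rel* overlapped. Per kilobase of the longest transcript only the share of *Nfkb1* was apart in this way. The order of the shares also rests on the length used. Per kilobase of the longest transcript, an alternative chosen after seeing the data, *Nfkb1* had the largest share, 28.8% ± 0.671 in KO and 26.3% ± 1.61 in WT.

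Other genes of the pathway were followed on lists written by hand from general knowledge, with earlier results of these data known. Where a gene is said to rise, its mean is given in WT and then in KO, and no change over time was measured. Of 8 other IκB-family and nuclear modulators, 4 were higher in KO, beside 18.1% of all genes tested, and 4 did not pass. The median log2 fold change of the list was 0.28. *Bcl3*, an atypical IκB that binds p50 and p52 dimers in the nucleus, rose from 34.4 ± 1.81 to 73.2 ± 9.51 CPM (log2 fold change 1.09, standard error 0.09, adjusted p = 8.39e-05 from edgeR), and *Nfkbid*, which encodes the nuclear IκBNS, from 18.8 ± 1.10 to 35.5 ± 1.54 CPM (log2 fold change 0.92, standard error 0.07, adjusted p = 5.51e-05). Both atypical genes were thus higher in KO, as was *Nfkbiz*. *Pdlim2*, a ligase that targets nuclear RelA for degradation, and *Nkiras1*, which encodes a small GTPase-like protein that binds IκB, had log2 fold changes of 0.58 and 0.44 (adjusted p = 0.00250 and 0.00968 from edgeR). *Nfkbil1*, *Nkrf*, *Nkiras2* and *Commd1* had log2 fold changes between -0.03 and 0.13.

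Of 14 genes for kinases and for the degradation of IκB, 8 were higher and 1 lower in KO, beside 18.1% and 19.0% of all genes tested. The median log2 fold change of the list was 0.28. The catalytic IKK genes *Chuk* (log2 fold change 0.15, 95% interval 0.00 to 0.30) and *Ikbkb* (0.11, -0.02 to 0.23) and the scaffold *Ikbkg* (-0.14, -0.27 to -0.01) did not pass the test without the block. *Ikbke*, which encodes the IKK-related kinase IKKε, rose from 106.9 ± 5.33 to 201.5 ± 10.3 CPM (log2 fold change 0.91, standard error 0.07, adjusted p = 5.51e-05 from edgeR), and *Tank*, the adaptor of TBK1 and IKKε, from 64.2 ± 12.3 to 137.9 ± 15.2 CPM (log2 fold change 1.10, standard error 0.13, adjusted p = 0.000343). *Fbxw11* (βTrCP2), an F-box protein that recognizes phosphorylated IκB, and *Tab2*, an adaptor of TAK1, had log2 fold changes of 0.54 and 0.52 (adjusted p = 0.000494 and 0.000994). The gene that was lower, named after its value was seen, was *Tab1*, another TAK1 partner, with a log2 fold change of -0.44 (adjusted p = 0.00346). The replicate block changed the call of all 3 IKK genes. With it *Chuk* and *Ikbkb* were higher (adjusted p = 0.0166 and 0.0421 from edgeR), as was *Tab3* (adjusted p = 0.0443), named after its value was seen. *Ikbkg* was lower with it (adjusted p = 0.0120 from edgeR). This makes 11 higher and 2 lower, beside 24.4% and 26.4% of all genes tested with the block.

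Of 11 ubiquitin ligases and adaptors, 6 were higher in KO, beside 18.1% of all genes tested, and 5 did not pass. The median log2 fold change of the list was 0.37. *Traf1*, itself a target of NF-κB, rose from 11.4 ± 2.23 to 37.0 ± 9.20 CPM (log2 fold change 1.70, standard error 0.19, adjusted p = 0.000248 from edgeR). *Birc3* (cIAP2), *Rnf31* (HOIP, the catalytic subunit of the linear ubiquitin complex) and *Traf2* had log2 fold changes of 0.92, 0.70 and 0.67 (adjusted p = 0.000310, 0.000116 and 0.000348). *Traf6*, *Traf3* and *Ripk1* had values of 0.06, 0.00 and -0.04. With the replicate block 7 were higher, beside 24.4% of all genes tested. The gain was *Sharpin* (adjusted p = 0.0300 from edgeR), named after its value was seen.

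Of 10 partners of A20 and other brakes, 5 were higher, beside 18.1% of all genes tested, and 5 did not pass. The median log2 fold change of the list was 0.19. *Tnip3* and *Tnip1* encode ABIN proteins that bind A20. *Tnip3* rose from 49.8 ± 1.25 to 84.0 ± 2.42 CPM (log2 fold change 0.75, standard error 0.06, adjusted p = 5.51e-05 from edgeR) and *Tnip1* from 86.9 ± 5.24 to 117.0 ± 4.71 CPM (log2 fold change 0.43, standard error 0.07, adjusted p = 0.00114). *Zc3h12a* (Regnase-1), an RNase that destroys cytokine mRNA, had a log2 fold change of 0.67 (adjusted p = 0.000176). *Tax1bp1*, which links A20 to its substrates, and the deubiquitinase gene *Cyld* passed narrowly, with log2 fold changes of 0.26 and 0.30 (adjusted p = 0.0343 and 0.0426), and 3 genes of the list passed when KO replicate 1, KO replicate 2, WT replicate 2 or WT replicate 3 was left out. *Itch* and *Rnf11*, which act in a complex with A20, had log2 fold changes of -0.03 and 0.13 (adjusted p = 0.736 and 0.117 from edgeR). With the replicate block *Rnf11* was higher (adjusted p = 0.0443 from edgeR) and *Otulin* lower (adjusted p = 0.00896, and 0.0990 without it). This makes 6 higher and 1 lower, beside 24.4% and 26.4% of all genes tested with the block.

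Of 46 target genes, 39 passed the filter on low counts. Among the 39, 29 were higher and 1 lower in KO, beside 18.1% and 19.0% of all genes tested. The median log2 fold change was 1.005. In the higher direction 19 of the 39 passed the study's thresholds, beside 3.36% of all genes tested. Several of these genes, such as *Cxcl10* and *Irf1*, are also targets of interferon signaling. *Icam1*, an adhesion molecule, rose from 94.6 ± 5.46 to 254.9 ± 25.4 CPM (log2 fold change 1.43, standard error 0.09, adjusted p = 3.90e-05 from edgeR), and *Tnf* from 75.2 ± 9.70 to 228.8 ± 26.4 CPM (log2 fold change 1.61, standard error 0.11, adjusted p = 5.40e-05). *Junb*, an AP-1 subunit, and *Gadd45b*, a stress-response and survival gene, had log2 fold changes of 1.34 and 1.11 (adjusted p = 3.90e-05 and 5.43e-05). The gene that was lower, named after its value was seen, was *Ptx3*, which encodes a secreted pattern recognition protein, with 1.25 ± 0.211 CPM in WT and 0.640 ± 0.0424 CPM in KO (log2 fold change -0.97, adjusted p = 0.00682). With the replicate block 31 were higher and 2 lower, beside 24.4% and 26.4% of all genes tested. The genes gained, named after their values were seen, were *Ptgs2* and *Plau* in the higher direction (adjusted p = 0.00698 and 0.00177 from edgeR) and *Mmp9* in the lower (adjusted p = 0.0414). Of 6 genes known to depend on IκBζ, 2 were tested, *Il6* and *Cebpd*, and both were higher, beside 18.1% of all genes tested. Their log2 fold changes were 1.18 and 0.47 (adjusted p = 0.00342 and 0.00413 from edgeR). *Il6* is also on the list of target genes and was counted there. *Il12b*, *Csf2*, *Lcn2* and *Edn1* were at 10 counts or fewer in every library and were not tested.

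**Figure D5:**
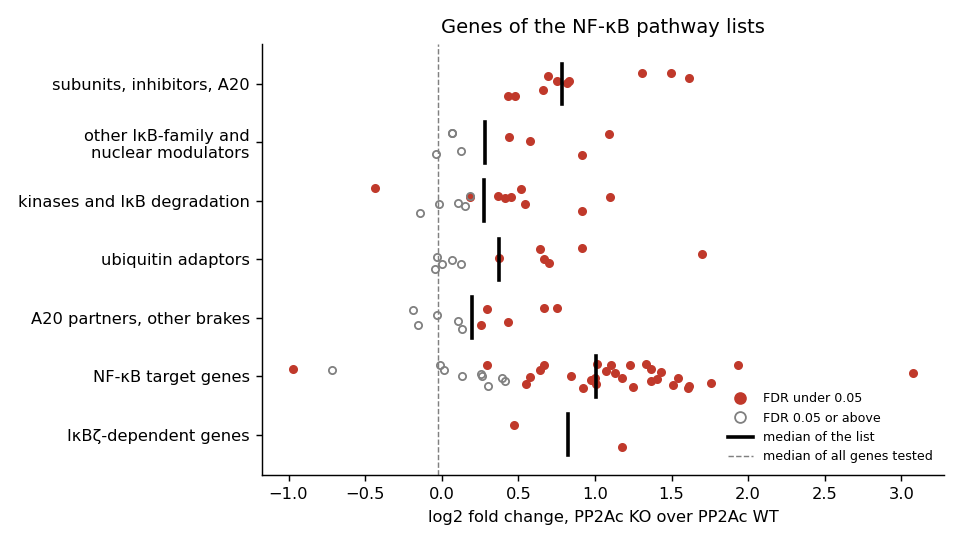
Log2 fold change, PP2Ac KO over PP2Ac WT (x axis), of every tested gene on each list, with vertical position within a row at random. Red points passed FDR under 0.05 in edgeR and open grey points did not, black bars are list medians, and the dashed line is the median of all genes tested. The 10 NF-κB subunits, inhibitors and A20 are all red and to the right of 0, and the target genes have the highest median, 1.005.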

How the data were processed

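The authors deposited 1 table of read counts, whole numbers without normalization, with 1 column for each of 6 poly(A)-selected, strand-specific libraries. The submitters' processing notes name fastp 0.20.0, kallisto 0.46.1, STAR 2.7.1a, HTSeq 0.11.2, edgeR 3.34.0 and limma 3.48.3 and the builds mm10 and GRCm38, without roles. The annotation release and strand setting are not given in the sources used here. Columns were matched to samples by genotype and number in their names.

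The counts were tested with edgeR 4.0.16 (R 4.3.3). Genes kept by filterByExpr (minimum count 10, minimum total 15) numbered 13680. After TMM scaling, a quasi-likelihood model (glmQLFit, glmQLFTest) with genotype as its single term was fitted, and p-values were adjusted over all of these genes by the Benjamini-Hochberg method. Standard errors are the log2 fold change over the square root of F, and intervals are 95%. CPM use the TMM factors. The paper states biological triplicates for its cell-based experiments in general, but no source used here says whether these libraries came from separate mice or cultures, so p-values measure the spread between these libraries, which may be technical. Libraries within a genotype differed by more than counting noise (chi-square per degree of freedom 9.54 to 46.0), so all were counted as separate. An exact permutation of 3 against 3 libraries cannot go below p = 0.1, and the ratios between genes are given without a test.

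Both genotypes carry replicate numbers 1 to 3 in their labels, and same-numbered libraries deviated together from their group means (correlation across genes 0.289, 0.148 and 0.337), so the model was also fitted with replicate block terms. The other settings were scaling by RLE or by the upper quartile, omission of the filter, at least 10 counts in every library, DESeq2 1.42.0, limma-voom (limma 3.58.1) and each library left out. The tests were also run on simulated data, against limits on recovery and false calls that were relaxed after the first outcome was seen, and DESeq2 made the most false calls there. Coordinates and exon lengths come from GENCODE M21 (GRCm38), which held 99.5% of the genes tested, and promoters from RefSeq. The 10 genes, lists and tests were chosen with earlier results of these data known. Beyond the 10, each list's 4 genes with the smallest p among those passing were to be named, with the 3 genes whose profile was most like the most changed of the 10.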

Additional observations from a re-analysis of the deposited data

How the results depend on the processing

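Of the 10 genes, 9 kept their direction and an FDR under 0.05 in all 13 alternatives tried. *Rel* kept its direction in all 13 and lost significance in 5, with upper-quartile scaling (log2 fold change 0.37, adjusted p = 0.0520 from edgeR) and without KO replicate 1, KO replicate 2, WT replicate 2 or WT replicate 3 (lowest 0.29, highest 0.46, adjusted p 0.0778 to 0.145). Across all 13 its adjusted p ran from 8.01e-05, with the replicate block, to 0.145. The replicate block, in which 10 genes were again higher, changed the call of none of the 10. With upper-quartile scaling the median of all genes tested was -0.09 in place of -0.02, the partners of A20 and other brakes had 3 genes higher and 2 lower in place of 5 and 0, and the kinases had 2 lower in place of 1. With the block, calls were gained in both directions: the kinases had 11 higher and 2 lower (8 and 1 without it), the ubiquitin adaptors 7 higher (6), the A20 partners 6 higher and 1 lower (5 and 0) and the target genes 31 higher and 2 lower (29 and 1). Among all genes tested the block gave 24.4% higher and 26.4% lower, in place of 18.1% and 19.0%. Without a filter on low counts 2 target genes were lower. When single libraries were left out, the number of A20 partners called higher ran from 3 to 5 and that of target genes called lower from 1 to 2, the 2 without KO replicate 1. The share of calls that were lower among all genes rose with upper-quartile scaling, with 2095 genes higher and 3356 lower against 2470 and 2604. The inhibitor to subunit ratio kept its direction with other lengths and when any single library was left out (log2 difference 0.84 to 0.91). Pairing by replicate number cannot change the mean difference of 0.87, so it is no check of it. Depth did not limit the 10 genes, but 7 of 46 target genes had too few counts to test.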
